A study of Mus musculus with 24 samples.

Results

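The genes described here are the amino acid and peptide transporters of sorted intestinal secretory cells of the mouse. They were chosen by name: protein-coding genes of the solute carrier families Slc1a, Slc3a, Slc6a, Slc7a, Slc15a, Slc36a, Slc38a and Slc43a with a mean of at least 10 raw counts over 24 libraries. Of 68 protein-coding genes of these 8 families among the 45513 genes counted, 49 met that minimum, and their expression was described over 4 groups of genotype and tissue. The members with the lowest mean counts were Slc6a3 (10.5) and Slc38a5 (13), and the nearest genes left out were Slc43a3 (7.2) and Slc7a3 (4.1). The 19 genes left out were Slc15a3, Slc15a5, Slc1a6, Slc1a7, Slc36a3, Slc38a8, Slc43a3, Slc6a2, Slc6a5, Slc6a11, Slc6a13, Slc6a15, Slc6a16, Slc6a17, Slc6a21, Slc7a3, Slc7a10, Slc7a12 and Slc7a13.

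All mice were homozygous for CreERT2 knocked in downstream of the Atoh1 coding sequence in its own locus and carried the R26R tdTom reporter, on a C57BL/6 background. WT mice kept the wild-type Atoh1 coding sequence, and 9S/T-A mice carried an allele in which the serines and threonines that precede prolines, targets of cyclin-dependent kinases, were replaced by alanines. Each adult mouse, male or female, received a single dose of 3 mg tamoxifen, and live EpCAM+ tdTom+ cells were sorted the next day from the proximal small intestine (SI) or the colon, so that all 4 groups share the Cre allele, the reporter, tamoxifen and the sort. Both genotypes gave 6 libraries from each tissue, numbered 2 to 7. The reporter marks cells that expressed Atoh1 around the dose, which are Paneth and goblet cells and their precursors rather than absorptive enterocytes, so the sorted population is a mixture and each library is an average over it.

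Amino acids reach an epithelial cell through carriers of several families. Di- and tripeptides enter from the gut lumen with protons through Slc15a1, neutral amino acids with sodium through Slc6a19, and cystine with basic amino acids through a pair of proteins, the heavy chain Slc3a1 and the light chain Slc7a9. A second heavy chain, Slc3a2, carries the light chains Slc7a5, Slc7a6, Slc7a7, Slc7a8 and Slc7a11 to the plasma membrane, where they exchange one amino acid for another, and Slc43a2 lets neutral amino acids leave by facilitated diffusion. Members of SLC36 and SLC38 also work at lysosomes, where amino acids are sensed by the mTORC1 kinase complex. The small intestine is the main site of amino acid and peptide absorption, while the colon mainly takes up water, salts and products of bacterial fermentation.

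Total counts ran from 35.97 to 65.8 M per library. The members took 0.17% of all counts in SI and 0.20% to 0.21% in colon as group means. Levels are given as CPM, the share of a gene in all counts of a library on the usual scale, after TMM scaling over all 24 libraries, which allows for a few very abundant genes. Summed over 7 goblet markers, SI libraries held 314610 to 507454 CPM and colon libraries 35664 to 81944 CPM, and 7 Paneth markers held 41519 to 84315 CPM in SI against 186.5 to 1494 CPM in colon. Leukocyte markers stayed at most at 20.03 CPM in sum, stromal and endothelial markers at most at 3.25 CPM and enteric nervous system markers at most at 10.3 CPM, with Col3a1 at 0 in every library. Markers of absorptive enterocytes were present, however. The sum of 9 of them was 2143 to 7170 CPM in the SI libraries and 110.4 to 160.5 CPM in the colon libraries, and in bulk RNA fewer cells of a type and less RNA per cell cannot be told apart.

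Most members differed in level between SI and colon, as did most of all genes tested. To compare genes with each other, CPM was divided by the exon length in kilobases. Of the 49 members, Slc3a2 and Slc3a1 had the highest level per length in SI, with 46.9 ± 7.4 and 44.4 ± 5.71 CPM per kb in WT SI (SD, n = 6) and 50.8 ± 5.42 and 47.7 ± 2.83 in 9S/T-A SI. These are the heavy chains that bring the SLC7 exchangers described above to the membrane. In colon the highest level per length was that of Slc1a5, the glutamine carrier ASCT2, with 67.6 ± 10.1 CPM per kb in WT and 66.8 ± 11.3 in 9S/T-A, followed by Slc6a14 with 35.7 ± 10.3 and 33.7 ± 6.63. Slc1a5 alone made 20.4% of the members' summed level per length in WT colon and 7.43% in WT SI. Slc38a2 and Slc38a10 were among the 6 highest in all 4 groups.

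**Figure D1:**
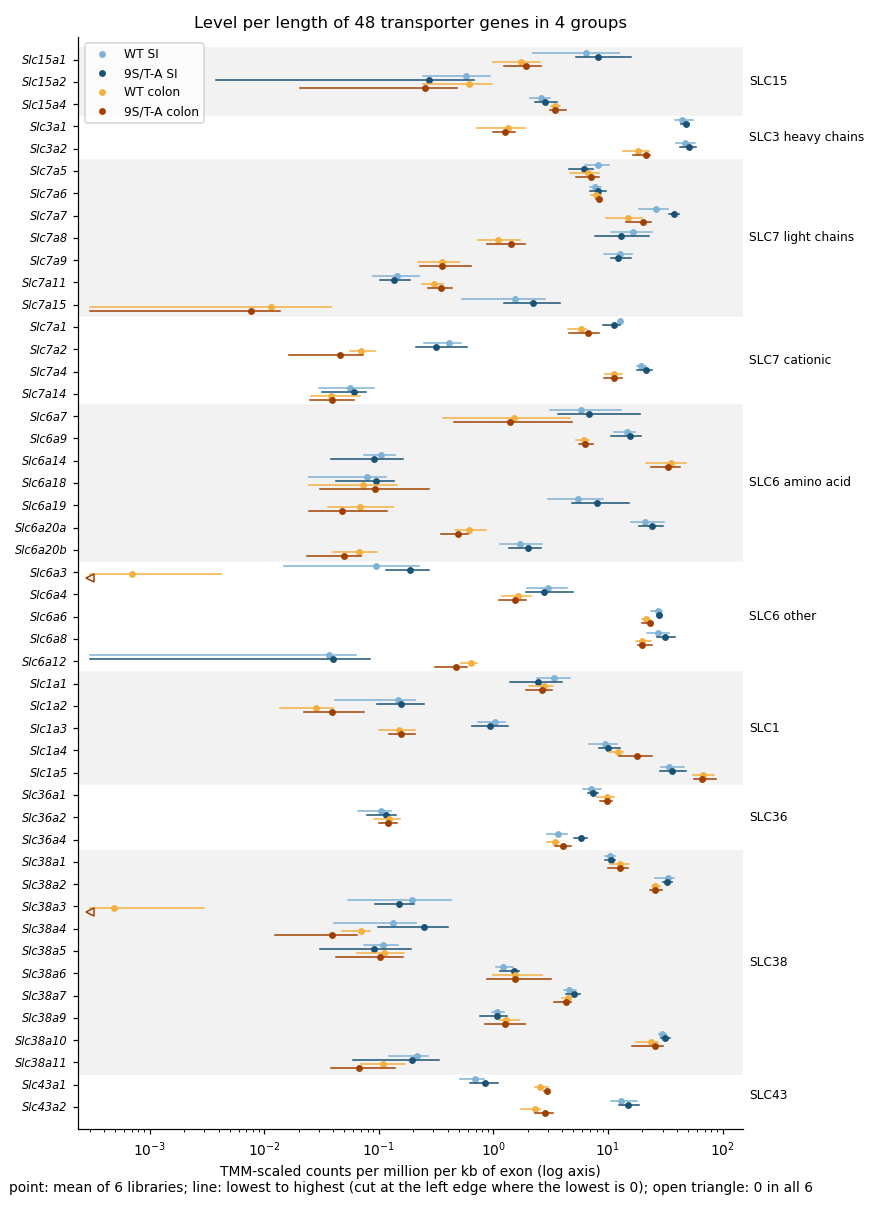
Level per length of 48 of the 49 members, ordered by role, as TMM-scaled CPM per kilobase of exon on a log axis. Points are means of 6 libraries and lines run from the lowest to the highest library, and Slc3a1 falls from 44.4 in WT SI to 1.34 in WT colon while Slc6a14 goes from 0.106 to 35.7.

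The first comparison asked how colon differs from SI within WT mice. Of 48 members tested, 26 were lower and 9 higher in WT colon, and 18 and 4 of them differed at least 2-fold (edgeR quasi-likelihood test, adjusted p under 0.05 over all genes tested). Among all 16979 genes tested, 30.4% were lower and 33.1% higher, and 12.7% were at least 2-fold lower and 11.2% at least 2-fold higher. The median log2 fold change was -0.45 over the members and 0.03 over all genes tested. In 9S/T-A mice 29 of 49 members were lower and 9 higher, against 28% and 32.9% of all genes, with a median of -0.67 over the members. Setting the genes at 0 in colon at their bound could not move this median, since they lie far below it either way. The direction of small differences rests on the scaling. With plain library totals the median of all genes moved from 0.03 to 0.74 in WT and from 0.04 to 0.85 in 9S/T-A. The members then split into 17 lower and 23 higher in WT and 17 lower and 21 higher in 9S/T-A. Of all genes, 14144 of 16979 in WT and 14199 of 16938 in 9S/T-A were called with plain totals. All genes were not counted by direction with this scaling. With it, 4 of the 26 falls of members in WT and 7 of the 29 in 9S/T-A became rises. Of the falls, 17 in WT and 17 in 9S/T-A were called with each scaling tried. Slc38a3, Slc6a3 and Slc7a15 averaged under 10 counts in both colon groups and met the count minimum through SI. Slc6a12 averaged under 10 counts in both SI groups and met it through colon. The direction of such members, and of their ratios below, is tied to the rule that chose them, and they enter these counts where tested. Called members named below kept their direction with TMM and plain totals unless stated.

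**Figure D2:**
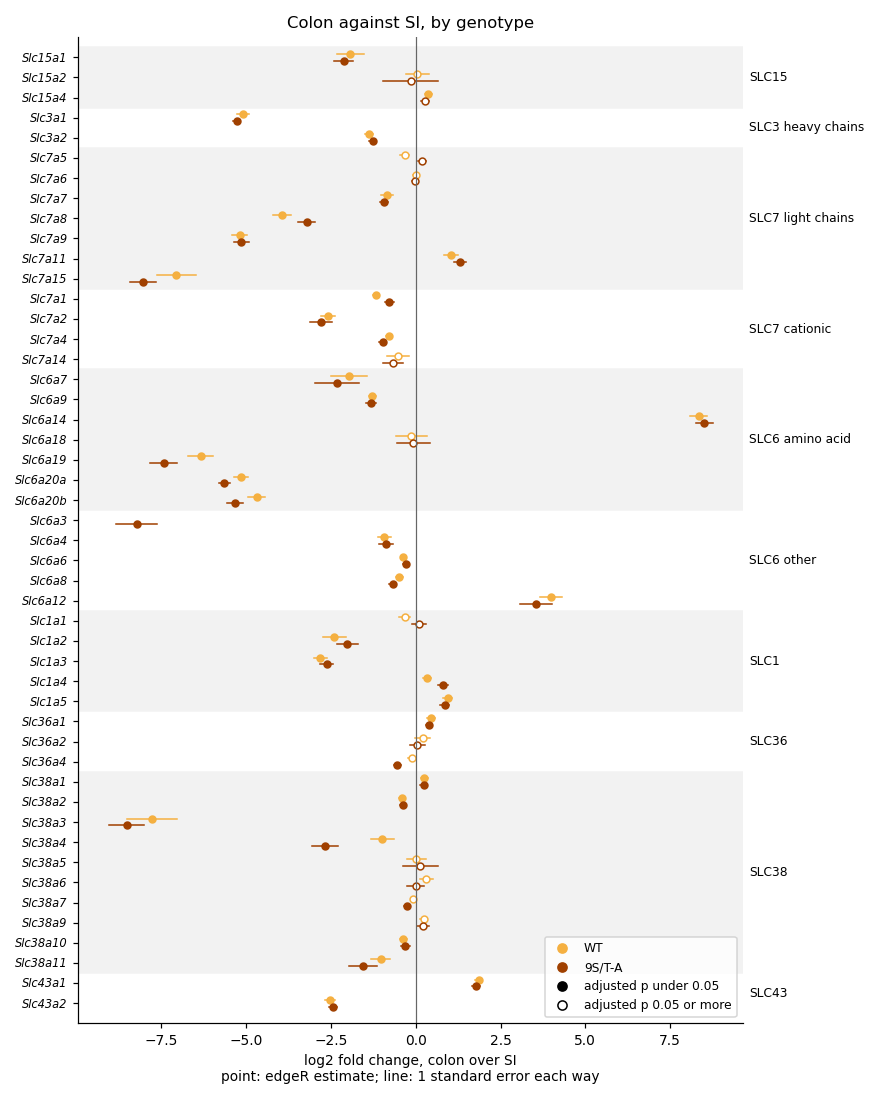
Log2 fold change of colon over SI for the members tested, 1 left out, in WT and in 9S/T-A mice, with 1 standard error each way and filled points for an adjusted p under 0.05. Slc3a1 lies far to the left at -5.09 in WT and -5.28 in 9S/T-A, and Slc6a14 lies alone at the right at 8.34 and 8.51.

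Among the peptide transporters, Slc15a1 (PepT1, chromosome 14, 121459621 to 121505254, minus strand) ranged from 6.99 to 39.2 CPM with a median of 13.3 in WT SI and from 3.1 to 7.92 with a median of 4.96 in WT colon. The 2 groups overlapped, yet the fall was 1.93 on the log2 scale (SE 0.403, adjusted p = 0.0006). In 9S/T-A mice it fell by 2.12 (SE 0.285, adjusted p = 1.16e-05), from 16.5 to 49.5 CPM in SI to 3.87 to 8.13 CPM in colon, with no overlap. Slc15a4, which moves histidine and peptides out of lysosomes, had 13.8 ± 2.05 CPM in WT SI and 18.3 ± 1.04 CPM in WT colon (SD, n = 6), a log2 fold change of 0.38 (adjusted p = 0.0028). In 9S/T-A its log2 fold change was 0.27 (adjusted p = 0.055), which passed with the replicate number as a block (0.0048) and without either 9S/T-A SI replicate 5 or 9S/T-A colon replicate 3. Slc15a2, the peptide carrier best known from kidney, did not pass in either genotype, with log2 fold changes of 0.05 (SE 0.333) and -0.15 (SE 0.816).

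The heavy chain Slc3a1 (chromosome 17, 85028347 to 85064243) and its partner Slc7a9 (chromosome 7, 35449037 to 35466036), whose loss causes cystinuria, fell by nearly the same amount. A fall of this size was not particular to the pair, since Slc6a20a fell by 5.15 in WT. Slc3a1 ranged from 89.6 to 127.2 CPM with a median of 97.7 in WT SI and from 1.67 to 4.32 with a median of 3.13 in WT colon, a difference of -5.09 on the log2 scale (adjusted p = 2.44e-12, SE 0.181). Slc7a9 ranged from 24.8 to 43.2 CPM with a median of 32.9 in WT SI and from 0.582 to 1.33 with a median of 0.974 in WT colon, a difference of -5.19 on the log2 scale (adjusted p = 1.19e-11, SE 0.214). The groups of both genes lay far apart. In 9S/T-A the log2 fold changes were -5.28 (SE 0.112) and -5.14 (SE 0.219). Slc3a2, the heavy chain of the ubiquitous exchangers, fell less, from 138.8 ± 21.9 to 54.3 ± 8.71 CPM in WT, a difference of -1.39 on the log2 scale (adjusted p = 7.31e-08, SE 0.12), and by 1.27 in 9S/T-A.

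The 250 bases before the start of Slc3a1 (GRCm38.p6, chr17:85028097-85028346, plus strand) and before the more upstream of 2 starts listed for Slc7a9 (chr7:35448842-35449091, plus strand) are shown because this pair of subunits fell together. Sequences are from RefSeq and read 5′ to 3′ on the strand of the gene. Capitals mark matches to 6 words searched on both strands, which were the HNF1 core GTTAAT, the GATA factor word AGATAA, the HNF4 word CAAAGTCCA, the CDX word TTTATTG, the E box CAGCTG and the word TTGCATCA bound by ATF4 with C/EBP.
Slc3a1: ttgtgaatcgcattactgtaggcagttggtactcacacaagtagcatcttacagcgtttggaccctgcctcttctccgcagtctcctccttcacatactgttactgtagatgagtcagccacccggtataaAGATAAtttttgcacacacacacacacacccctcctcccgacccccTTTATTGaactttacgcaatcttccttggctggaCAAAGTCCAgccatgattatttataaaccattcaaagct
Slc7a9: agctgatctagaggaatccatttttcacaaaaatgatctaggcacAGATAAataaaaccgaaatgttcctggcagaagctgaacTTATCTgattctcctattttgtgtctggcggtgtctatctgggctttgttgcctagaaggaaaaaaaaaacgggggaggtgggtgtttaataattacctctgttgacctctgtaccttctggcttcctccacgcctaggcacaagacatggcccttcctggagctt

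Slc3a1 held a GATA word 119 bases, a CDX word 73 bases and an HNF4 word 39 bases before its start, and this window of Slc7a9 held 2 GATA words, 205 and 166 bases before the start and the latter on the opposite strand. The windows given run from 250 bases before to 50 after a start, and the words were searched in the 250 bases before it alone. In this part of all 32851 windows, 9.99% held the GATA word, 4.2% the CDX word, 0.384% the HNF4 word, 6.43% the HNF1 core, 13% the E box and 0.791% the ATF4 element. Windows were given for 37 of the 49 members, 54 windows in all, and counting every listed start the GATA word was in 4 of these members (Slc15a2, Slc3a1, Slc7a7 and Slc7a9), the HNF1 core in 4 (Slc36a1, Slc6a20a, Slc7a15 and Slc7a7), the E box in 8 and the ATF4 element in 2 (Slc7a11 and Slc7a7). These counts are per gene over all its starts, while the shares above are per window, so they cannot be compared directly. None of the 6 words overlapped another in the windows shown. These are matches of letters and were not tested for binding.

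The SLC7 light chains fell into several patterns. Slc7a8 (LAT2), a basolateral exchanger of neutral amino acids, went from 67 ± 22.9 to 4.46 ± 1.6 CPM in WT, a difference of -3.94 on the log2 scale (adjusted p = 4e-09, SE 0.266), and -3.22 in 9S/T-A. Slc7a7 (y+LAT1), which exports basic amino acids and is mutated in lysinuric protein intolerance, fell by 0.85 in WT and by 0.93 in 9S/T-A on the log2 scale, and by 0.13 and 0.14 with plain library totals. Slc7a15 had 1154 counts over the WT SI libraries and 13 over the WT colon libraries, a ratio of 142 (95% interval 82.5 to 267, exact and for counting error only). Slc7a11 (xCT), which brings in cystine for glutathione, rose from 2 ± 0.65 to 4.19 ± 0.734 CPM, a difference of 1.04 on the log2 scale (adjusted p = 0.00024, SE 0.195). Slc7a5 (LAT1), the importer of large neutral amino acids, had log2 fold changes of -0.32 in WT (adjusted p = 0.054) and 0.19 in 9S/T-A (adjusted p = 0.21, or 0.04 when blocked by replicate number). The WT value passed without any one of WT SI replicates 4 and 6 or WT colon replicate 5, the 9S/T-A value without 9S/T-A colon replicate 7, and with plain library totals the WT value was 0.38. Of the 4 cationic transporters, Slc7a1, Slc7a2 and Slc7a4 fell in both genotypes, Slc7a2 by 2.59 and Slc7a1 (CAT1, the main arginine importer) by 1.18 in WT. The fall of Slc7a1 by 0.78 in 9S/T-A was a log2 fold change of 0.01 with plain library totals. Those of Slc7a4, by 0.8 in WT and 0.98 in 9S/T-A, were log2 fold changes of -0.08 (adjusted p = 0.3) and -0.18 (adjusted p = 0.082) with plain totals and did not pass.

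**Figure D3:**
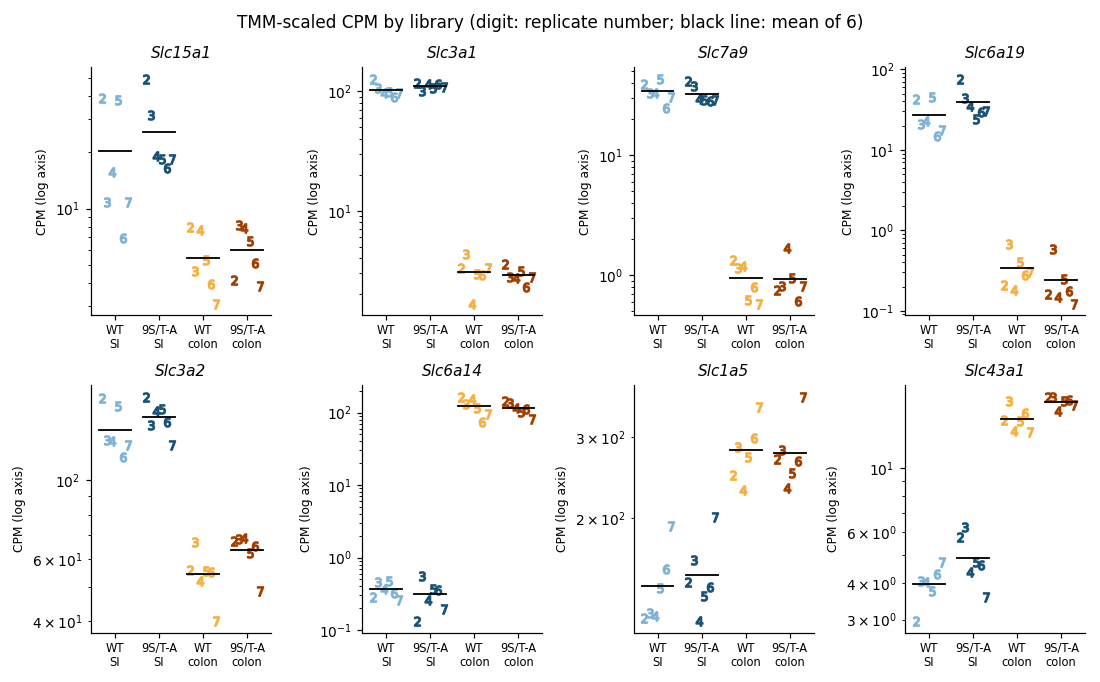
CPM of 8 members in every library, by group, on log axes that differ between panels, with the replicate number as the symbol and a black line at the mean of 6. Slc3a1, Slc7a9 and Slc6a19 lie lower in every colon library than in any SI library, and Slc6a14, Slc1a5 and Slc43a1 lie higher.

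The 7 SLC6 carriers of amino acids held large differences in both directions. Slc6a19 (B0AT1, chromosome 13, 73679745 to 73704865), whose loss causes Hartnup disorder, ranged from 15.04 to 45.2 CPM with a median of 21.8 in WT SI and from 0.182 to 0.673 with a median of 0.293 in WT colon. The log2 fold change was -6.34 (adjusted p = 8.09e-10, SE 0.374), and it was -7.42 (SE 0.398) in 9S/T-A. Slc6a20a, a carrier of proline, fell by 5.15 in WT and by 5.64 in 9S/T-A, and its neighbour and near copy Slc6a20b by 4.69 and 5.33. Reads of these 2 adjacent genes may be split between them by the counting, so each value is uncertain. Slc6a7, a brain proline carrier, fell by 1.96, Slc6a9, the glycine carrier GlyT1, by 1.28, and Slc6a18 had a log2 fold change of -0.13 (adjusted p = 0.82).

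Slc6a14 (ATB0,+, chromosome X, 21714896 to 21742355), a carrier of neutral and basic amino acids, ran the other way. It ranged from 0.256 to 0.477 CPM with a median of 0.345 in WT SI and from 73.5 to 165.9 CPM with a median of 122.9 in WT colon. All 6 colon libraries lay above all 6 SI libraries, and the log2 fold change was 8.34 (adjusted p = 3.8e-13, SE 0.249), and in 9S/T-A it was 8.51 (SE 0.243). The bases before its start are shown because it rose most of the members, and they held none of the 6 words (GRCm38.p6, chrX:21714650-21714899, plus strand, RefSeq).
Slc6a14: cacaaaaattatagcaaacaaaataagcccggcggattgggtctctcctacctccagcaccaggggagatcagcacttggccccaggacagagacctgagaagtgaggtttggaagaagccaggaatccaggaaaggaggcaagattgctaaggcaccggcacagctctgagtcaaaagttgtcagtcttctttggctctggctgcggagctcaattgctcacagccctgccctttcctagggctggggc

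Among the SLC6 carriers of other small molecules was Slc6a12, which takes up betaine and GABA. It had 0.113 ± 0.075 CPM in WT SI and 1.93 ± 0.246 CPM in WT colon. The log2 fold changes were 3.99 (SE 0.324) in WT and 3.54 in 9S/T-A. Slc6a12 met the count minimum through colon, so this direction is tied to the rule and no p-value is given. Slc6a4, the serotonin transporter, fell by 0.92, and with plain library totals its log2 fold change was -0.2 and did not pass (adjusted p = 0.32). Slc6a6, the taurine carrier, fell by 0.37 in WT and 0.29 in 9S/T-A with TMM scaling, but rose by 0.35 and 0.51 with plain library totals, and Slc6a8, the creatine carrier, which fell by 0.48 in WT, turned likewise. Slc6a3, the dopamine transporter, had 84 counts in WT SI and 1 count in WT colon, a ratio of 134 (95% interval 23.4 to 5357), and in 9S/T-A 167 counts in SI and 0 in colon, at least 92.3-fold higher in SI when the colon group is set at 3 counts over its 6 libraries.

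In SLC1, the glial glutamate carriers Slc1a3 and Slc1a2 fell by 2.81 and 2.4 in WT, while the neutral amino acid exchanger Slc1a5 (chromosome 7, 16781346 to 16798274) rose. Slc1a5 ranged from 121.6 to 192.2 CPM with a median of 132.8 in WT SI and from 230.2 to 349.7 with a median of 278.8 in WT colon, with no overlap and a log2 fold change of 0.94 (adjusted p = 1.1e-05, SE 0.129). Its relative Slc1a4 rose by 0.33 in WT (adjusted p = 0.025, and 0.054 without WT colon replicate 3) and by 0.81 in 9S/T-A (adjusted p = 0.00025). Slc1a1, the epithelial glutamate carrier, had a log2 fold change of -0.32 in WT (adjusted p = 0.088). It passed with the replicate block (0.0092) and without WT SI replicate 7, and with plain library totals the log2 fold change was 0.38.

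Of SLC36, Slc36a1, the proton-coupled carrier of glycine, alanine and proline, rose by 0.45 in WT and by 0.4 in 9S/T-A. Of the 10 SLC38 members, 5 fell and 1 rose in WT (30.4% and 33.1% of all genes), and 6 fell and 1 rose in 9S/T-A (28% and 32.9% of all genes). Slc38a3 (SNAT3) had 266 counts in WT SI and 1 in WT colon, a ratio of 424 (95% interval 75.5 to 16829), and 203 against 0 counts in 9S/T-A, at least 112-fold higher in SI. The abundant Slc38a2 (SNAT2), induced in cells short of amino acids, had 154.9 ± 19.8 CPM in WT SI and 118.7 ± 6.7 CPM in WT colon, a log2 fold change of -0.42 with TMM and 0.3 with plain totals, and Slc38a10 gave -0.36 and 0.34. In 9S/T-A the call of Slc38a10 was lost in 6 of 12 fits that left out a library (adjusted p up to 0.071). Slc38a1 (SNAT1) rose by 0.26 in WT and lost its call without any one of WT colon replicates 2, 4 or 5 (adjusted p up to 0.073), and in 9S/T-A, where it rose by 0.23, in 6 of 12 such fits (up to 0.0986).

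The 2 SLC43 members, which let neutral amino acids pass by facilitated diffusion, went in opposite directions. Slc43a2 (LAT4) fell from 130.4 ± 32.8 CPM in WT SI to 23.2 ± 3.37 CPM in WT colon, a difference of -2.52 on the log2 scale (adjusted p = 9.5e-10, SE 0.151). Slc43a1 (LAT3) rose from 3.98 ± 0.597 to 14.7 ± 1.4 CPM, a difference of 1.85 on the log2 scale (adjusted p = 1.35e-09, SE 0.114). In 9S/T-A the log2 fold changes were -2.44 and 1.77.

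The calls of single members were then set side by side between the genotypes. Of 48 members tested in both, 26 were called lower in both and 8 higher in both, 0 in opposite directions. The median absolute difference between the 2 log2 fold changes was 0.19. Of all genes tested, 63.6% were called in WT and 60.9% in 9S/T-A in either direction. The share called in both was not counted over all genes, so this agreement is not shown to be particular to the members. Slc15a4 was called in WT and not in 9S/T-A, and Slc36a4 and Slc38a7 were among those called in 9S/T-A and not in WT, the falls of Slc36a4 (0.54) and Slc38a7 (0.26) being rises of 0.26 and 0.53 with plain library totals. The test of the difference itself, genotype by tissue over all 24 libraries, is given below.

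Markers of several cell types were lower in colon as well. In WT these were 7 of 7 Paneth markers, 6 of 7 goblet, 7 of 8 enteroendocrine, 4 of 4 cycling and 3 of 4 stem cell markers and all 5 tuft markers tested. Of all genes tested 30.4% were lower, and 1 enteroendocrine marker was higher. All 9 absorptive markers were called lower in colon in both genotypes, by 3.02 to 9.67 on the log2 scale in WT, and Apoa1, Fabp1, Lct and Treh averaged under 1 CPM in colon. Within SI, Slc6a19 and Slc15a1 were high in the libraries with high absorptive sums: WT SI replicates 5 and 2 had the highest absorptive sums (5908 and 4749 CPM), the highest Slc6a19 (45.2 and 42.4 CPM) and the highest Slc15a1 (38.1 and 39.2 CPM), and 9S/T-A SI replicate 2 had the highest of all 24 in each (7170, 76.6 and 49.5 CPM). Slc7a9 and Slc7a8 were also highest of their groups there. In WT SI replicates 5 and 2 and 9S/T-A SI replicate 2, Slc7a9 had 43.2, 39.4 and 41.7 CPM and Slc7a8 97.6, 87.4 and 92.1 CPM. Slc3a1 followed the absorptive sums only in part. It was highest of its group in replicate 2 of WT SI and of 9S/T-A SI (127.2 and 117.0 CPM). In WT SI replicate 5 it had 98.6 CPM, below the 105.4 CPM of replicate 3, whose absorptive sum was 3047 CPM. It varied less across these libraries, with a coefficient of variation of 12.9% in WT SI against 47.8% for Slc6a19, from 89.6 to 127.2 CPM in WT SI and from 99.5 to 117.0 CPM in 9S/T-A SI. The part of any of these cell types in the tissue difference of the transporters was not tested.

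The second comparison asked what the 9S/T-A allele changes in SI. Of 47 members tested, 2 were called, both higher in 9S/T-A, Slc36a4 and Slc7a7, and 0 lower. Over all 16236 genes tested, 1.94% were called in either direction and 1.03% higher. At an unadjusted p under 0.05 there were 7 members, against 15.7% of all genes. The median log2 fold change was 0.09 over the members and 0 over all genes, and the members not called lay between -1.06 (Slc15a2) and 0.96 (Slc6a3). Without 9S/T-A SI replicate 2, Slc38a6 was called as well (adjusted p = 0.043), which makes 3.

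Slc36a4 (PAT4, ENSMUSG00000043885, chromosome 9, 15709738 to 15742384), a carrier of proline and tryptophan, ranged from 16.3 to 24.2 CPM with a median of 20.8 in WT SI. In 9S/T-A SI it ranged from 28.4 to 36.8 CPM with a median of 31.6. Every 9S/T-A SI library lay above every WT SI library, and the log2 fold change was 0.65 (edgeR adjusted p = 0.0023, SE 0.097). The call held in each of the 12 fits that left out a library (adjusted p at most 0.0101). In colon it went from 19.3 ± 1.68 to 22.7 ± 2.79 CPM between WT and 9S/T-A, a difference of 0.25 on the log2 scale (adjusted p = 0.34, SE 0.083). The difference between the tissues was -0.42 (SE 0.134, unadjusted p = 0.004, adjusted p = 0.2), so a difference between SI and colon in the effect of genotype was not shown. The other members of its family, Slc36a1 and Slc36a2, had log2 fold changes of 0.06 and 0.13 in SI. Of the 25 other genes tested within 2.5 Mb on each side of Slc36a4, 0 were called.

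Slc7a7 (ENSMUSG00000000958, chromosome 14, 54369442 to 54417780) ranged from 61.1 to 111.0 CPM with a median of 90.1 in WT SI and from 112.2 to 136.3 with a median of 124.6 in 9S/T-A SI. The groups did not overlap but nearly touched, and the log2 fold change was 0.54 (SE 0.121, adjusted p = 0.035). The call was lost in 8 of 12 fits that left out a library, with adjusted p of 0.0542 to 0.087 without any one of replicates 3 to 6 of either genotype, and with plain library totals (0.0595). In colon it went from 49 ± 12.6 to 66.8 ± 11.2 CPM between WT and 9S/T-A, a difference of 0.47 on the log2 scale (adjusted p = 0.34, SE 0.154). Genotype by tissue gave -0.09 (SE 0.214, adjusted p = 0.97). Its heavy chain Slc3a2 had log2 fold changes of 0.11 in SI (adjusted p = 0.64) and 0.25 in colon (adjusted p = 0.47). Within 2.5 Mb on each side of Slc7a7, 3 of 86 other genes tested were called (Ppp1r3e, Supt16 and Gm43305), 1 higher and 2 lower.

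The bases before Slc36a4 (GRCm38.p6, chr9:15709488-15709737, plus strand) and before the most upstream of 5 starts of Slc7a7 (chr14:54417945-54418194, minus strand) are shown because these are the members called between genotypes. Neither stretch held any of the 6 words searched, the E box CAGCTG among them. For Slc7a7 a copy of TTGCATCA spans this start and so runs past the bases shown, and its other words lie before other starts.
Slc36a4: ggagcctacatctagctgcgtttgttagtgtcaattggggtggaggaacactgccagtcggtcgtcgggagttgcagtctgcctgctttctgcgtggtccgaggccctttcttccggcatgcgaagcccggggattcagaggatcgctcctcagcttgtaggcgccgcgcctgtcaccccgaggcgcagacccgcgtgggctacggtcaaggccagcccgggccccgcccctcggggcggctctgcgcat
Slc7a7: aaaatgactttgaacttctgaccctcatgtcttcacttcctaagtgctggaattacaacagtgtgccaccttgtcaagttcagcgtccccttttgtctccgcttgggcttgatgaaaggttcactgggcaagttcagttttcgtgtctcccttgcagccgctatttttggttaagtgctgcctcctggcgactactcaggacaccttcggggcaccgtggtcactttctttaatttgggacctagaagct

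**Figure D4:**
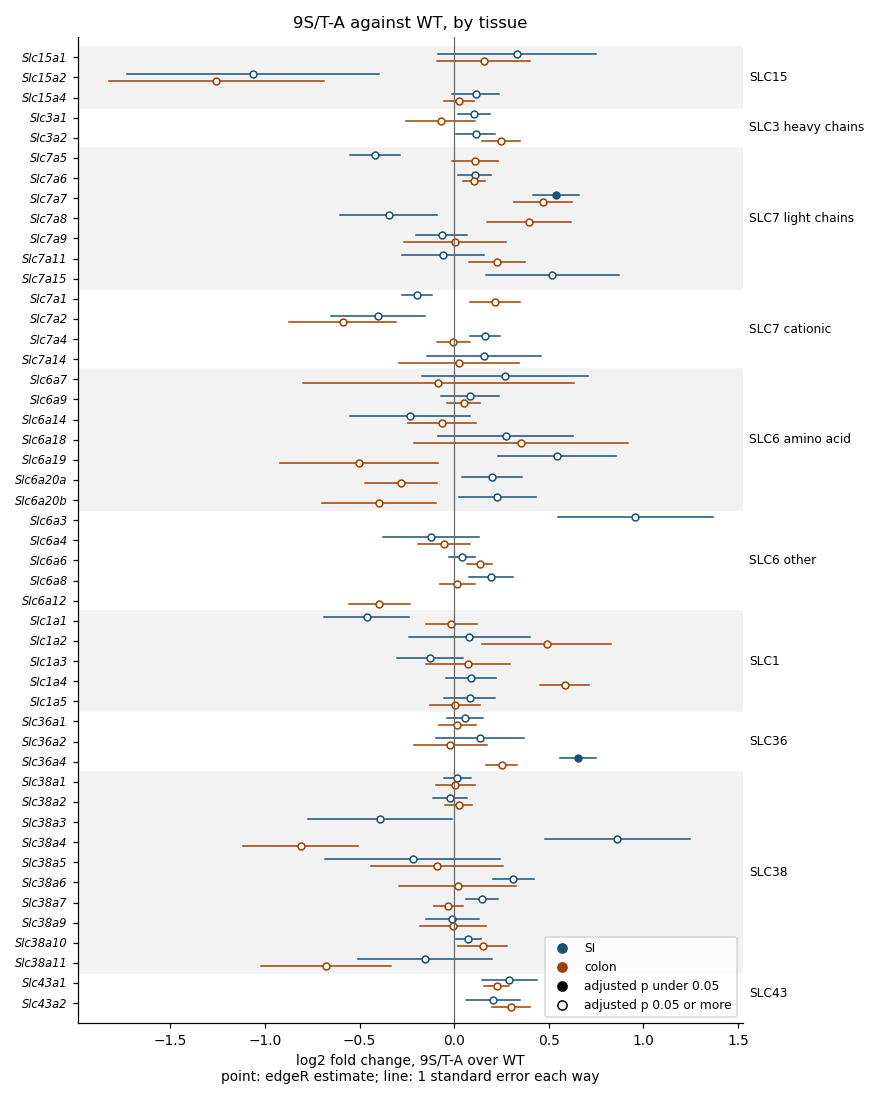
Log2 fold change of 9S/T-A over WT for the members tested, 1 left out, in SI and in colon, with 1 standard error each way and filled points for an adjusted p under 0.05. Slc36a4 at 0.65 and Slc7a7 at 0.54 in SI are the filled points, and Slc15a2 lies lowest in both tissues at -1.06 and -1.26.

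Cell type markers differed between the SI groups as well. None of the 9 absorptive markers was called, but all had positive log2 fold changes, from 0.1 to 0.76, with sums of 2143 to 5908 CPM in WT SI and 3719 to 7170 CPM in 9S/T-A SI. Of 7 Paneth markers 4 were lower, and of 5 tuft markers tested 2 were lower, where 0.905% of all genes were called lower. Of 8 enteroendocrine markers 1 was higher and 1 lower. All 7 goblet markers had positive log2 fold changes, from 0.2 to 0.41, and all 4 cycling markers negative ones, from -0.41 to -0.32, with 0 called in either list. The 2 libraries with the highest absorptive sums among WT SI, replicates 5 and 2, had 20.4 and 21.2 CPM of Slc36a4, within the range of the other 4, and 93.8 and 111.0 CPM of Slc7a7, the highest of that group. The part of these markers in the 2 calls was not tested.

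The carriers from the gut lumen introduced above, Slc6a19, Slc15a1 and the pair of Slc3a1 and Slc7a9, did not pass in SI. Slc6a19 went from 27.3 ± 13.1 to 39.9 ± 19.1 CPM (SD, n = 6) between WT and 9S/T-A, a difference of 0.54 on the log2 scale (adjusted p = 0.43, SE 0.313). Slc15a1 had a log2 fold change of 0.33 (adjusted p = 0.75, SE 0.417), Slc3a1 of 0.1 (SE 0.084, adjusted p = 0.59) and Slc7a9 of -0.07 (SE 0.135, adjusted p = 0.85). The wider SEs of the former pair make a difference of the size of Slc36a4 harder to detect in them. Slc7a5 went from 30.6 ± 6.13 to 22.9 ± 3.55 CPM between WT and 9S/T-A, a log2 difference of -0.42 (SE 0.133, unadjusted p = 0.0071, adjusted p = 0.14).

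In colon 0 of 46 members were called by edgeR, where 0.318% of 16997 genes were, and 9 had an unadjusted p under 0.05, against 8.81% of all genes. With the replicate number as a block, edgeR called Slc1a4, Slc7a7, Slc3a2 and Slc43a2 higher and 385 of all 16997 genes, as given under processing below. DESeq2 called 1 member, Slc1a4, and 1.22% of the genes to which it gave an adjusted p. Slc1a4 (ASCT1, chromosome 11, 20302180 to 20332713), an exchanger of alanine, serine, cysteine and threonine, was outside the rule for named genes and is given because of that call. It ranged from 40.5 to 53.2 CPM with a median of 48.5 in WT colon and from 49.05 to 96.1 with a median of 65.6 in 9S/T-A colon. Of the 6 9S/T-A libraries, replicate 7 lay within the WT range and the other 5 above it. The log2 fold change was 0.58 (SE 0.129, edgeR adjusted p = 0.082, DESeq2 adjusted p = 0.00445). With sex as a covariate the edgeR adjusted p was 0.0335, and without 9S/T-A colon replicate 7 it was 0.0184. In SI its log2 fold change was 0.09 (SE 0.133). With genotype by tissue it was 0.48 (SE 0.201, adjusted p = 0.405).

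**Figure D5:**
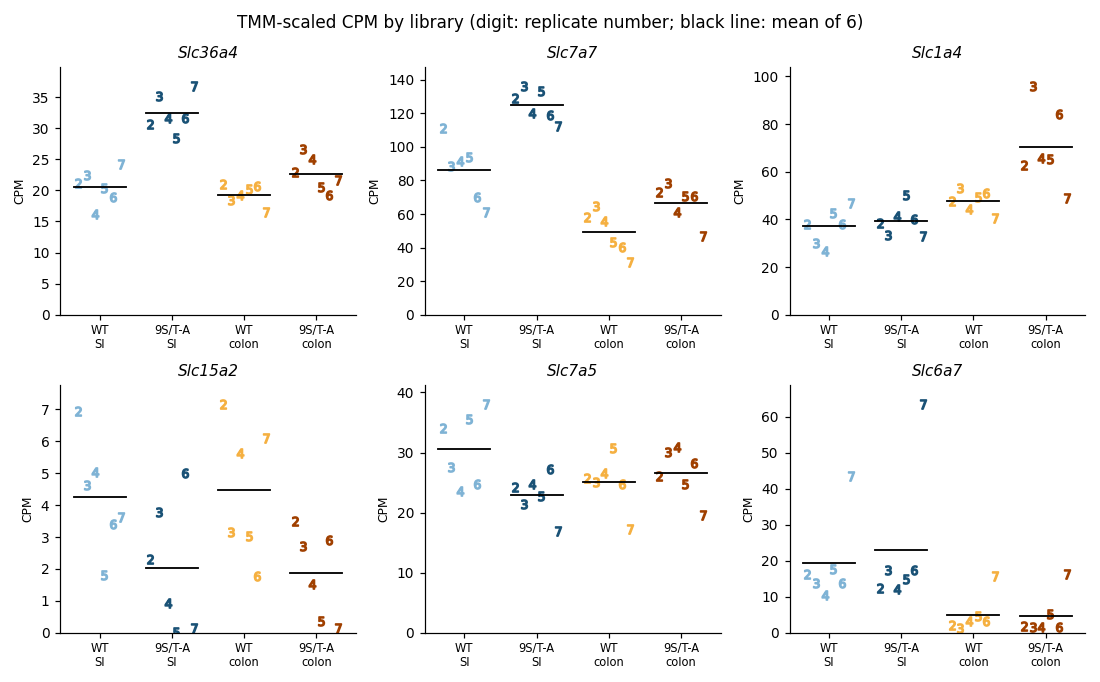
CPM of 6 members in every library, by group, on linear axes from 0, with the replicate number as the symbol and a black line at the mean of 6. The SI groups of Slc36a4 and Slc7a7 do not overlap, Slc15a2 is near 0 in 9S/T-A replicates 5 and 7 of both tissues, and Slc6a7 is highest in replicate 7 of every group.

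Slc15a2 (chromosome 16, 36750178 to 36784962) had the largest difference in size and did not pass. It ranged from 1.8 to 6.94 CPM with a median of 4.14 in WT SI and from 0.028 to 5.01 with a median of 1.62 in 9S/T-A SI. In colon it ranged from 1.78 to 7.18 with a median of 4.4 in WT and from 0.15 to 3.51 with a median of 2.12 in 9S/T-A. The groups overlapped in both tissues, and the log2 fold changes were -1.06 (SE 0.667, adjusted p = 0.47) in SI and -1.26 (SE 0.569, adjusted p = 0.55) in colon. The lowest 9S/T-A libraries were replicates 5 and 7 in both tissues, with 0.028 and 0.137 CPM in SI and 0.36 and 0.15 CPM in colon.

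The third comparison, genotype by tissue over all 24 libraries, called 0 of 49 members with edgeR and 0 with DESeq2, while 0.412% of 17953 genes were called by edgeR and 1.44% of those with an adjusted p by DESeq2. At an unadjusted p under 0.05 there were 5 members, Slc38a4, Slc36a4, Slc7a5, Slc1a4 and Slc7a1, against 9.69% of all genes. Their log2 differences were -1.7, -0.42, 0.51, 0.48 and 0.39, with adjusted p from 0.18 to 0.405.

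Genes that handle amino acids beyond these families were read from 5 lists. Of 17 brush border peptidases and accessory proteins, 16 were tested in WT, and 13 were lower and 1 higher in colon, against 30.4% and 33.1% of all genes, with a median log2 fold change of -1.62. Tmprss15, enteropeptidase, had 1.68 CPM in WT SI and 0.00242 CPM in WT colon. Ggt1, which cleaves glutathione, fell by 6.93 and Enpep, aminopeptidase A, by 7.6. In colon 0 of 15 were called between genotypes (0 with an unadjusted p under 0.05), and in SI 1 of 16, where 1.94% of all genes were, Xpnpep2, an aminopeptidase that cuts before proline, with 54.2 ± 7.27 and 76.2 ± 13 CPM in WT and 9S/T-A, a difference of 0.49 on the log2 scale (adjusted p = 0.047, SE 0.117).

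Of 22 genes of the amino acid response, the programme run by ATF4 when amino acids are short, 15 were lower and 4 higher in WT colon, where 30.4% and 33.1% of all genes were, with a median of -0.64. Trib3 fell by 4.62, Mthfd2 by 2.11 and Atf5 by 1.57, and Atf4 itself by 0.64, which became 0.08 with plain library totals. Of 20 cytosolic aminoacyl-tRNA synthetases 12 were lower and 2 higher, against the same 30.4% and 33.1%, with a median of -0.28. Wars was lower by 1.39, Aars by 0.9 and Mars by 0.62, the last being 0.09 higher with plain library totals. Plain totals moved the median of all genes from 0.03 to 0.74, so the direction of small falls in these lists rests on the scaling. Of 32 genes of amino acid sensing and mTORC1, 31 were tested, and 11 were higher, a share close to the 33.1% of all genes, and 6 lower, a share under the 30.4% of all genes, with a median of 0.14. Rragd, a small GTPase of the lysosome, fell by 5.17, Castor2 fell by 2.71 and Castor1, an arginine sensor, rose by 3.4. Of 14 carriers of other families 11 were tested, and 6 were lower and 2 higher (30.4% and 33.1% of all genes), with Slc25a12, the aspartate-glutamate carrier of mitochondria, higher by 1.87, the glutamate carrier Slc25a22 lower by 1.78, the ornithine carrier Slc25a15 lower by 1.59 and Slc16a10, the aromatic amino acid carrier, lower by 2.49. Between genotypes 0 genes of the latter 4 lists were called in either tissue by edgeR, and the counts at an unadjusted p under 0.05 were 2, 3, 5 and 2 in SI and 4, 3, 0 and 2 in colon in the order given, where 15.7% and 8.81% of all genes lay under it in SI and colon.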

How the data were processed

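Raw counts per Ensembl gene were deposited by the authors for each library, made from single-end stranded mRNA reads aligned to GRCm38 with TopHat2 2.1.1 and counted over exons by strand with featureCounts (Subread 1.5.2), primary alignments alone, so counts of near copies are uncertain. Versions are from the submitters' processing notes. Symbols and biotypes came from GENCODE M21, which named 98.15% of the 45513 genes, and positions are those of the count files.

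The 12 libraries of each comparison were tested with edgeR 4.0.16 (R 4.3.3; filterByExpr, TMM, two-sided quasi-likelihood test), with Benjamini-Hochberg adjustment over all genes tested and calls under 0.05. The fit was tested on simulated counts, and standard errors come from log2 fold change and F. Genotype by tissue used all 24 libraries. Alternatives were DESeq2 1.42.0, RLE factors, plain library totals, no filter, sex as a covariate, a fit over all 24 libraries, a replicate block and leaving out each library. Interval bounds are exact at 95%, and genes at 0 were set at 3 counts over the group. They cover counting error alone.

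The members, lists and tests were chosen with earlier results of these data known. Named members were those called between genotypes, the 7 largest rises and falls in WT colon among members of at least 1 CPM in a tissue, the 5 highest per length in a group, a list of 20 well-known carriers, and the 3 smallest adjusted p of each pathway list. Other members are examples at the ends of a range or chosen after their values were seen. Counts and medians include 1 member and 1 gene of the pathway lists that are not reported here by name.

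The labels do not say what replicate numbers mark, and per the series' design text SI and colon came from the same mice. Deviations from the group means of same-numbered libraries correlated over 0.1 in 6 of 6 pairs between SI and colon in each genotype (means 0.29 and 0.37), so these numbers were taken to pair the tissues. The main tissue and genotype by tissue fits held no term for this pairing. Their standard errors and p-values therefore treat SI and colon libraries as independent, and the replicate block was run as an alternative. Where libraries of a group are not separate mice, p-values measure only the spread between these samples.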

Additional observations from a re-analysis of the deposited data

Results flagged for a closer look

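In each group of 6 libraries, the CPM of 28 named members was searched for a library far from the rest, by the gap to its nearest neighbour over the group's range against Dixon's critical value at 95%. Of 111 groups, 8 had such a library, and chance gives about 1 in 20. In 9S/T-A colon, replicate 7 stood apart for 3 members: Slc1a5 was high at 367.6 CPM (the others 232.7 to 280.8), Slc38a10 low at 105.2 CPM (171.6 to 194.0) and Slc3a2 low at 48.8 CPM (62.4 to 68.9). In the same group, Slc15a4 was high in replicate 5 at 22.9 CPM (16.5 to 18.5), Slc6a19 in replicate 3 at 0.586 CPM (0.123 to 0.249) and Slc7a9 in replicate 4 at 1.69 CPM (0.61 to 0.955). In 9S/T-A SI, Slc6a19 was high in replicate 2 at 76.6 CPM (24.3 to 43.6), the library with the highest absorptive marker sum of all. In WT colon, Slc38a3 had 0.0157 CPM in replicate 3, which is 1 count, and 0 in the other 5.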

How the results depend on the processing

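Of the members called between genotypes in SI (2), 1 was called with plain library totals and 1 in the fit over all 24 libraries, which both lost Slc7a7, and 1 to 3 when each library was left out. In colon (0 called), DESeq2 called 1 member and sex as a covariate 1, the replicate block called 4 higher (adjusted p of 0.00491 for Slc1a4, 0.0185 for Slc7a7, 0.0315 for Slc3a2 and 0.0328 for Slc43a2) and 2 genes of the amino acid response and 1 synthetase, and leaving out each library gave 0 to 1. Same-numbered libraries of the 2 genotypes were of the same sex, and their deviations correlated over 0.1 in 4 of 6 pairs in SI (mean 0.19) and 5 of 6 in colon (mean 0.41), with means of -0.03 and -0.07 between other numbers. Since not every pair passed and the labels do not say what else a number marks, the genotypes were not taken as paired. Tissue counts with both directions pooled stayed within 1.5 times (35 to 40 in WT and 36 to 41 in 9S/T-A, with the replicate block 38 and 41). Counted by direction they did not, as the split with plain library totals given above shows. Genotype by tissue called 0 members in every alternative. Over all genes in colon, 54 were called by edgeR, 248 by DESeq2 and 385 with the block, with 89 to 103 under sex, no filter and the fit over all libraries and 30 to 72 without single libraries. In SI the numbers were 315, 776 and 477, with 520 in the fit over all libraries and 188 to 550 without single libraries, and genotype by tissue gave 74, 255 and 342. With plain library totals 11 tissue log2 fold changes in WT and 12 in 9S/T-A changed sign, among them in WT Slc1a1 0.38, Slc36a4 0.59, Slc38a10 0.34, Slc38a2 0.302, Slc38a7 0.65, Slc6a6 0.35, Slc6a8 0.23 and Slc7a5 0.38, and in 9S/T-A Slc36a4 0.26, Slc38a10 0.49, Slc38a2 0.42, Slc38a7 0.53, Slc15a2 0.59, Slc6a6 0.51, Slc6a8 0.12 and Slc7a1 0.0079. The scaling itself moves them, since it shifts the median of all genes. Of 32 levels per length, 27 moved by more than 1 SD with plain totals. Members near the count minimum (Slc38a5, Slc6a3 and Slc6a12 in single groups) are limited by depth.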

Other observations

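Libraries numbered 7 held the extremes of 6 members in all 4 groups. These members were picked after their values were seen. Slc1a5 (192.2 and 349.7 CPM in SI and colon of WT, 200.8 and 367.6 CPM in those of 9S/T-A), Slc6a7 and Slc7a14 were highest there, and Slc1a1, Slc6a4 and Slc7a7 lowest. Slc6a7, the proline carrier best known from neurons, had 43.6 CPM in WT SI replicate 7 against at most 17.7 in the other 5, and 63.6 against 17.4 in 9S/T-A SI, 15.6 against 4.71 in WT colon and 16.4 against 5.25 in 9S/T-A colon. Slc7a7 had 61.1, 112.2, 31.6 and 47.2 CPM in these libraries, each the lowest of its group. The numbers 7 also had the highest sum of 6 tuft cell markers in all 4 groups (102.4, 83.0, 36.8 and 28.1 CPM), and the part of these markers was not tested. By the study's description the reporter does not label tuft cells.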
